A study of Homo sapiens with 9 samples.

Results

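The 10 genes described here are germline genes that somatic cells normally keep silent through methylation of their promoters: GTSF1, DAZL, DDX4, MAEL, TDRD1, TDRD9, SYCP3, SYCE2, TEX101 and BRDT. They were matched by symbol to Ensembl gene IDs, and all 10 were found among the 60683 gene IDs counted. GTSF1 was taken because it was lost in both clones studied, so its own levels in parental cells and clones are given as a description with no test. The label names methylation, but methylation was not measured in these samples, and the name rests on what is known of the genes.

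RNA was sequenced from HEK293T cells, an established line from human embryonic kidney transformed with SV40 large T antigen, in 3 groups of 3 replicates. Parental cells carried no reporter. Clone 37 (high reporter expression) and clone 15 (low) each grew from a single sorted cell after the piggyBac transposon had put a pair of reporters into the genome, ATG-(CAG)60-Myc-NLuc with 60 CAG repeats and ATG-(CAG)0-Myc-FLuc with none, and each level is thus represented by 1 clone. All 9 libraries were depleted of ribosomal RNA and read as paired ends, of 75 bp in parental cells and clone 37 and of 100 bp in clone 15, and so the effects of the longer reads and greater depth on one side, and of clone 15 on the other, cannot be told apart. The labels do not say whether replicates were separate cultures, so the p-values measure the spread between these libraries, which may be technical.

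Germ cells run programs that other tissues shut off. In one of these, PIWI proteins loaded with piRNAs find transposon transcripts in the testis and direct their cleavage or the silencing of their loci, with tudor-domain proteins as scaffolds. In another, meiosis, the synaptonemal complex zips paired chromosomes together while recombination enzymes repair programmed DNA breaks. In somatic cells many promoters of such genes are held silent by DNA methylation and by repressors such as the PRC1.6 complex, and their appearance in cell lines and tumours has made them known as cancer-testis genes.

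Gene counts summed to 10334090 to 38093340 per library, with the deepest 3 libraries all from clone 15. Parental replicate 2 and clone 15 replicate 2 stood apart from the other libraries of their groups. The chi-square per degree of freedom between gene counts was 11.5 and 11.6 for the pairs with parental replicate 2 against 1.99 for the other parental pair, and 9.97 and 8.19 for the pairs with clone 15 replicate 2 against 4.53. Counts of calls in the gene lists are also given without parental replicate 2, and those that moved without clone 15 replicate 2 are given without it too. Levels are given as CPM (counts per 1000000), the reads on the gene's own strand scaled to a common library total of gene counts. The 7 HEK293T marker genes (PAX2, LHX1, NEFL, NEFM, VIM, KRT8 and KRT18) were each at 1 CPM or more in every library, but their summed level differed between groups, at 1261 to 1551 CPM in parental libraries, 794 to 864 CPM in clone 37 and 4034 to 4190 CPM in clone 15. Neurofilament NEFM moved most, with means of 559, 137 and 2728 CPM. Of 4 markers of other cell types, PTPRC, ALB and PDGFRB were under 1 CPM in every group mean and COL1A1 was at 34.4, 19.5 and 72.7 CPM. The part of these shifts in the results was not tested. Of 10 germ cell and pluripotency markers, ZP3 alone reached 1 CPM in every library of parental cells (mean 1.86 CPM) and of clone 37 (3.70 CPM), and none did in clone 15. The summed level of these 10 markers was 1.87 to 3.06 CPM in parental libraries, 3.64 to 5.02 CPM in clone 37 and 0.697 to 1.10 CPM in clone 15, and the sperm genes PRM1, PRM2 and TNP1 had 0 counts in all 9 libraries.

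Most of the 10 germline genes were close to the detection limit in all 3 groups. GTSF1 and SYCE2 were the ones at 1 CPM or more in every parental library, and SYCE2 was the single one in either clone. DAZL, TEX101 and BRDT had 0 counts in every parental library. A count of 0 over a group allows up to 0.0794 CPM in parental cells, 0.0892 CPM in clone 37 and 0.0369 CPM in clone 15, taking 3 counts as the limit, which covers counting error only. In bulk RNA, fewer cells that express a gene and less RNA per cell cannot be told apart.

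**Figure D1:**
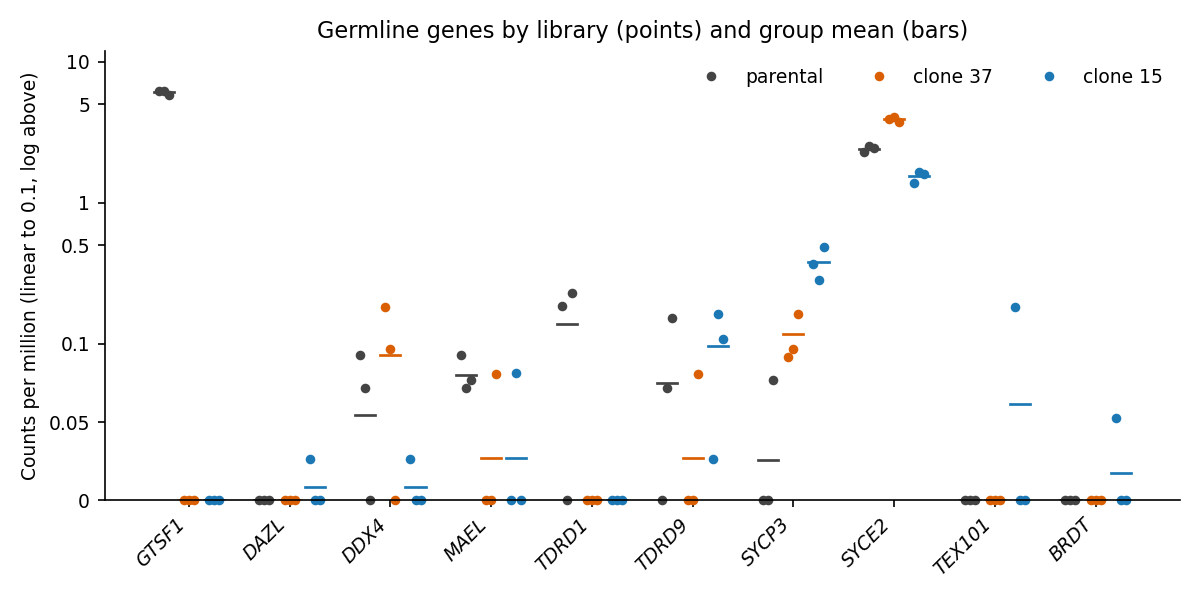
CPM of each of the 10 germline genes in every library, on an axis that is linear to 0.1 CPM and logarithmic above; points are libraries, bars are group means and colours mark the 3 groups. GTSF1 stands near 6 CPM in parental cells and at 0 in both clones, SYCE2 is separated into 3 levels, and the other genes lie at or near 0.

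The piRNA genes come first. GTSF1, a small zinc-finger protein that binds PIWI proteins and is needed for transposon silencing in germ cells, had 67, 86 and 76 counts in the parental libraries (6.20, 6.19 and 5.82 CPM), and 0 counts in each of the 6 clone libraries. Parental libraries thus agreed closely, with a mean of 6.07 ± 0.217 CPM (SD, n = 3), and no read was seen in any clone library. With 3 counts set as the floor in every clone library, the level was at least 22.6-fold lower in clone 37 and at least 50.4-fold lower in clone 15. Per kilobase of exon the parental level was 2.40 CPM, which placed GTSF1 above 49.7% of 19910 protein-coding genes. That set includes genes with no parental counts, so the share is not the place of GTSF1 among expressed genes. The gene (ENSG00000170627) lies on the minus strand at chr12:54455950-54473602 in GENCODE 29 on GRCh38 and shares no exon base with another gene. Reads on its opposite strand were scarce in every group, with 0 counts in the parental libraries and 3 counts over the 6 clone libraries.

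TDRD1 (chr10:114179270-114232304, plus strand), a tudor-domain scaffold of the piRNA pathway, had 2, 0 and 3 counts in the parental libraries and 0 in all 6 clone libraries. All of its 5 reads came from parental cells, but the parental mean of 0.138 CPM lies under the floor of 3 counts per library, so no fold is given. TDRD9 (chr14:103928462-104052667, plus), a helicase of the same pathway, had 3 counts in parental cells, 1 in clone 37 and 7 in clone 15. MAEL (chr1:166975582-167022214, plus), which acts in nuclear piRNA silencing, had 1 count in each parental library, 1 over the 3 libraries of clone 37 and 2 over those of clone 15. At these counts no difference could be seen in TDRD9 or MAEL. DDX4 (chr5:55738017-55817157, plus), the germ cell RNA helicase also called VASA, had 2, 3 and 1 counts in parental cells, clone 37 and clone 15. DAZL (chr3:16586792-16670306, minus), an RNA-binding protein that promotes translation in germ cells, had a single count in all 9 libraries, in clone 15.

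Of the meiotic genes, SYCE2 was expressed in every library and its 3 groups did not overlap. SYCE2 is a central element protein of the synaptonemal complex, and its gene (ENSG00000161860) is on the minus strand at chr19:12898786-12919276. Parental libraries held 2.31, 2.52 and 2.45 CPM, clone 37 libraries 3.93, 4.06 and 3.72 CPM, and clone 15 libraries 1.39, 1.66 and 1.61 CPM. Every clone 37 library was above, and every clone 15 library below, all parental libraries. Per kilobase of exon the means were 1.66, 2.68 and 1.07 CPM, so that SYCE2 passed from 46.0% of protein-coding genes below it in parental cells to 51.5% in clone 37 and 43.0% in clone 15.

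SYCE2 was tested by edgeR's quasi-likelihood test across all genes that passed a filter on low counts, with Benjamini-Hochberg adjustment over all of them. In clone 37 it exceeded the parental level by 0.65 on the log2 scale, with an SE of 0.21 and an adjusted p of 0.0137, among 16501 genes tested of which 54.0% were called at an adjusted p under 0.05. In clone 15 SYCE2 stood at a log2 fold change of -0.69, with an SE of 0.26 and an adjusted p of 0.0323, among 17703 genes of which 51.4% were called. Between the clones it was 1.34 higher in clone 37 on the log2 scale (SE 0.23, adjusted p = 1.04e-05), among 17712 genes of which 57.7% were called. Since most genes were called in each comparison, a call by itself is close to the background. The fold changes are edgeR's in all 3 cases. The clone 37 call was lost with the DESeq2 Wald test (log2 fold change 0.64, adjusted p = 0.0649), and the clone 15 call was lost with DESeq2, with no filter on low counts and without any 1 of the 6 libraries, whichever was left out (log2 fold change -0.74 to -0.58, edgeR's adjusted p from 0.0531 to 0.115).

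The other 8 genes did not pass the filter in the comparisons with parental cells, and GTSF1 passed it through its parental libraries alone, so counts over those that passed say nothing of the 10. With no filter, 32740 genes were fitted in clone 37 and 34820 in clone 15 against parental cells, of which 27.3% and 25.8% were called. There SYCP3 was called in clone 15 and TDRD1 was called lower in clone 15 (adjusted p = 0.0475 by edgeR), at a fitted fold that rests on groups at 0 and is not given. The TDRD1 groups overlapped, since a parental library also had no count. The exact permutation test used for SYCP3 below gave p = 0.4 for TDRD1 in clone 15, and 0.708 after adjustment. Neither was called in clone 37, where edgeR's adjusted p was 0.433 for SYCP3 and 0.11 for TDRD1.

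SYCP3, a lateral element protein of the synaptonemal complex, had 0, 0 and 1 counts in parental cells, 1, 1 and 2 in clone 37, and 14, 7 and 9 in clone 15. The means were 0.0255, 0.117 and 0.378 CPM, and the 3 groups did not overlap. The pooled ratio of clone 15 to parental cells was 13.9, with a 95% exact counting interval of 2.32 to 568, and that of clone 37 to parental cells was 4.49, with an interval of 0.445 to 221. In the edgeR fit with no filter its adjusted p in clone 15 was 0.00753. The fitted fold depends on the prior count and is not given. A two-sided exact permutation test of the CPM gave p = 0.1, the smallest that 3 against 3 allows, and 0.383 after adjustment over 23 such tests of the 10 genes. With every library thinned to the smallest total, 1, 4 and 11 counts were left in parental cells, clone 37 and clone 15. Even so, at 0.0987 CPM per kilobase in clone 15 the level was far under that of SYCE2 in the same cells.

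TEX101 (chr19:43401496-43418597, plus), a surface protein of male germ cells, had 7 counts, all in replicate 1 of clone 15, the deepest library, and none after thinning. BRDT (chr1:91949371-92014426, plus), a testis bromodomain protein that reads acetylated histones in developing sperm, had 2 counts, also in that library alone. The difference in depth between clone 15 and the other groups moves with these counts, and its part in them was not tested beyond the thinning.

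SYCP3 and SYCE2 both share exon bases with a gene on the opposite strand. In SYCP3 (ENSG00000139351, chr12:101728648-101739472, minus strand) 14.8% of exon bases overlap CHPT1, and in SYCE2 24.1% overlap GCDH. Reads on the opposite strand of SYCP3 numbered 142, 207 and 183 in parental libraries, 152, 164 and 172 in clone 37, and 471, 267 and 192 in clone 15. Of the reads counted over SYCP3 on either strand, 0.188%, 0.813% and 3.13% were thus on its own strand in the 3 groups. The 95% exact (Clopper-Pearson) intervals were 0.00475 to 1.04%, 0.222 to 2.07% and 2.12 to 4.43%, which cover counting error only. CHPT1 lies on the opposite strand, so these shares are not a measure of SYCP3 alone. For comparison, in the median of 7194 protein-coding genes the share of reads on the wrong strand was 0.209% in parental cells, 0.236% in clone 37 and 0.297% in clone 15, and the upper quartile was 1.21%, 1.42% and 1.46%. The part of wrong-strand CHPT1 reads in the SYCP3 counts was not tested. With reads counted regardless of strand, SYCP3 was at a log2 fold change of 0.07 in clone 15 (adjusted p = 0.796 by edgeR) and was not called. CHPT1 itself was at 66.4, 70.8 and 63.1 CPM and was called in neither clone against parental cells (adjusted p by edgeR 0.384 in clone 37 and 0.336 in clone 15).

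On the opposite strand of SYCE2 the mean was 2.97 ± 0.775 CPM in parental cells, 5.19 ± 0.208 CPM in clone 37 and 4.20 ± 0.219 CPM in clone 15 (SD, n = 3). GCDH, a mitochondrial dehydrogenase, rose from 22.8 CPM to 30.05 CPM in clone 37 (log2 fold change 0.38, adjusted p = 0.00127 by edgeR) and to 37.7 CPM in clone 15 (0.70, adjusted p = 8.76e-07). GCDH was thus highest in clone 15, where SYCE2 was lowest, and the opposite-strand reads were highest in clone 37, where SYCE2 was highest too. With reads counted regardless of strand, the SYCE2 log2 fold change in clone 15 was 0.23 in place of -0.69, and between the clones it was 0.46 (adjusted p = 0.0676). That count is not the sum of both strands. It held 26, 27 and 36 reads in parental libraries, where the opposite strand alone had 40, 30 and 40. In clone 15 it held 90, 71 and 69, where the opposite strand alone had 152, 109 and 78.

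**Figure D2:**
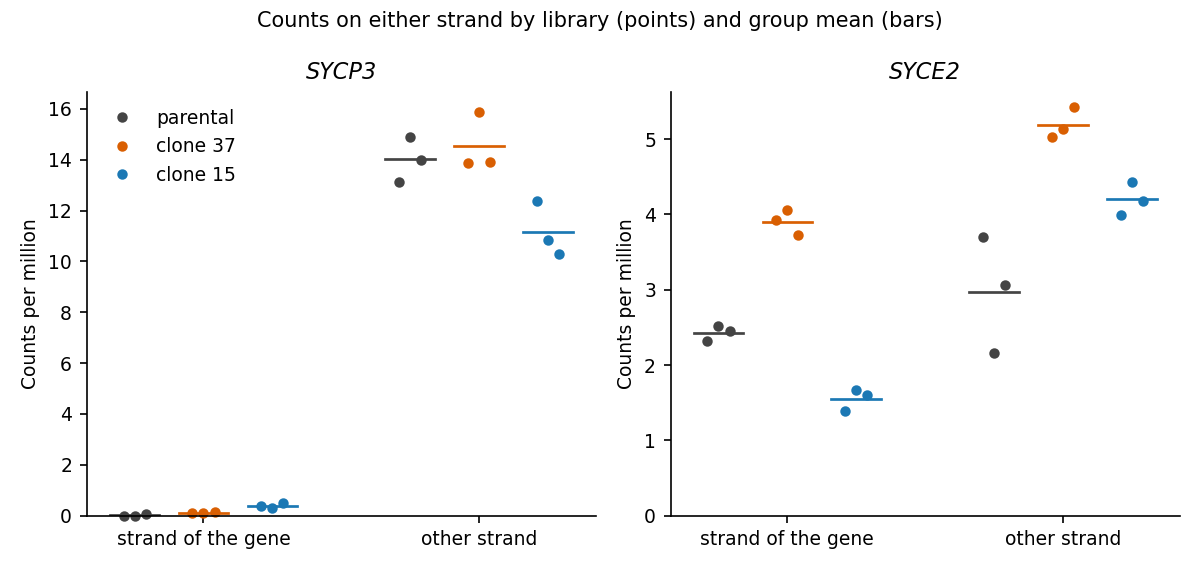
Reads on the gene's own strand and on the opposite strand of SYCP3 and SYCE2 in each library, in CPM (points are libraries, bars are group means). Reads over SYCP3 lie almost wholly on the opposite strand, that of CHPT1, with 930 opposite-strand counts against 30 own-strand counts in clone 15.

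The promoters of these genes were read from RefSeq (GRCh38.p14), as the 250 bases before each annotated start, and CpG dinucleotides, the sites that methylation acts on, were counted. All 10 genes matched, with 15 windows. The 4 windows below hold no annotated exon base, and are shown because they show the CpG content of the lost gene (GTSF1), of the gene expressed in all groups (SYCE2) and of 2 genes near 0 (DAZL and BRDT). Each runs 5′ to 3′ on the strand of the gene, with CpG in capitals. The GTSF1 window is chr12:54473603-54473852 (minus strand), that of SYCE2 chr19:12919294-12919543 (minus), that of DAZL, a start inside the gene, chr3:16604791-16605040 (minus) and that of BRDT chr1:91949121-91949370 (plus).
GTSF1: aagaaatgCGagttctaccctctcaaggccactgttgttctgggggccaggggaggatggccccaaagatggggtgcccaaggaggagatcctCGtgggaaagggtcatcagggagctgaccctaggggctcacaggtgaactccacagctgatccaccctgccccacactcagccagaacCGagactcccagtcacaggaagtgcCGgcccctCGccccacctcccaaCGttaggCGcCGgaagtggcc
SYCE2: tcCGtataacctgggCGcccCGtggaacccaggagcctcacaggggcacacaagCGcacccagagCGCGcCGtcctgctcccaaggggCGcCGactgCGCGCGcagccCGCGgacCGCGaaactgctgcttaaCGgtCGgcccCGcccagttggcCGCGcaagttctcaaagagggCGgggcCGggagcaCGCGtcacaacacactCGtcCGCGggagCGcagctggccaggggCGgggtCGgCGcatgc
DAZL: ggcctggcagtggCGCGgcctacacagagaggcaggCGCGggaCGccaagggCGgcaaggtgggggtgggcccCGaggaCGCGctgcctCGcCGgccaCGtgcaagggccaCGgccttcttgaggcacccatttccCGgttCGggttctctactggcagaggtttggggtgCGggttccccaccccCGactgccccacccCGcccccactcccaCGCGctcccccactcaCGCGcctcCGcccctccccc
BRDT: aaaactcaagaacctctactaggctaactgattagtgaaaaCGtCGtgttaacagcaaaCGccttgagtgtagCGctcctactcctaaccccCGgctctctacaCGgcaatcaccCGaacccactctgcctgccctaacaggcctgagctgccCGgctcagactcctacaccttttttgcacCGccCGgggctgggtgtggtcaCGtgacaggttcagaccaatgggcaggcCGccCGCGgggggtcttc

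GTSF1 had 8 CpG in its window, and 43.7% of 35114 promoter windows had fewer. SYCE2 had 32 CpG, with 90.5% of windows below it, the DAZL window shown had 23 and the BRDT window 14. Over the 15 windows the number ran from 0 in DDX4, whose RefSeq start lies inside the gene, to 51 in MAEL, with a median of 19 against 11 in all windows and 20 in 78 windows of a wider list of germline genes. GTSF1 thus lay under the lower quartile of the 15 windows, 13.5 CpG.

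Letters of known factor motifs were searched on both strands. The core TCCCGC of E2F sites, which E2F6 of the PRC1.6 complex can bind, was in 3 of the 15 windows (20%) and in 23.5% of all windows. The E-box CACGTG, bound by MAX and MGA of the same complex and by USF factors, was in 6 of 15 (40%) against 6.35% of all, and CCAAT, the NF-Y motif, in 10 of 15 (66.7%) against 32.0%. In the 78 windows of the wider germline list the shares were 34.6% for the E2F core, 14.1% for the E-box and 44.9% for CCAAT. Windows of one gene overlap in TDRD1 and BRDT, so the 15 are not independent. A match is a description of these letters, not a bound site.

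**Figure D3:**
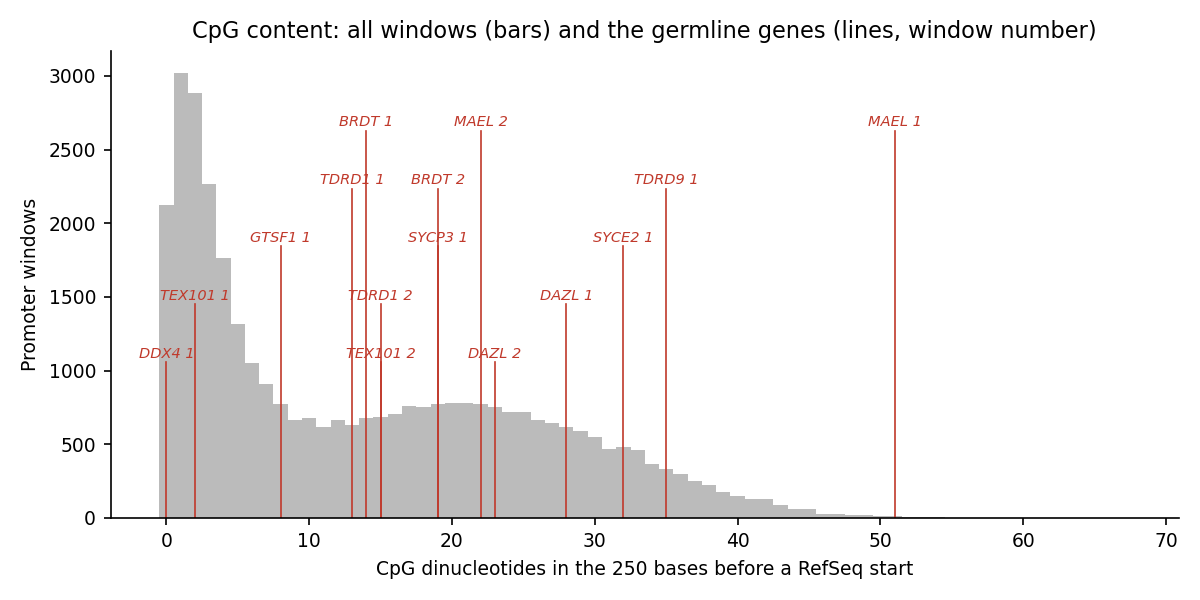
Number of CpG dinucleotides in the 250 bases before each RefSeq start for all 35114 windows (grey bars, number of windows) with the windows of the 10 germline genes as red lines, numbered within a gene. GTSF1, at 8 CpG, lies left of the median of all windows, 11, and SYCE2, at 32, to its right.

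GTSF1 was chosen for its loss, so what follows describes which other genes had like counts and supports nothing about it. Of 11665 gene IDs with at least 67 counts (its own lowest parental count) in each parental library, 4, with GTSF1, had 3 or fewer counts in the 6 clone libraries together. The others were PHEX-AS1, an antisense RNA of PHEX, and MAGEA6 and MAGEA1, cancer-testis antigens of the X chromosome. MAGEA6 had 112, 190 and 169 parental counts, none in clone 37 and 1 in each library of clone 15. MAGE genes belong to a family of near copies, so that their counts are uncertain.

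The genes closest to GTSF1 over the 9 libraries were chosen by the smallest root-mean-square difference of log2(CPM + 0.5), each set to its parental mean, among 15627 genes tested. PHEX-AS1 came first (0.116 on the log2 scale), with 80, 98 and 80 counts in parental cells, 0 in clone 37 and 2, 1 and 0 in clone 15. MAGEA1 came next (0.209), with 85, 112 and 85 parental counts, 0 in clone 37 and 1, 1 and 0 in clone 15. HAS2, a hyaluronan synthase, was the third (0.504) and went from 61.1 CPM to 4.54 CPM in clone 37 and 2.20 CPM in clone 15, so it was lower in both clones without reaching 0. ENSG00000287424 (0.573), for which no symbol was had, had 50, 38 and 55 parental counts and 1 in all clone libraries. GABRA3, a GABA receptor subunit on the X chromosome, was the fifth (0.586), with 46, 66 and 45 parental counts and 2 and 7 counts in clones 37 and 15. PHEX-AS1, MAGEA1 and GABRA3 lie on the X chromosome, and the list was ranked on the same libraries, so it is a description.

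The loss of GTSF1 did not extend to the genes beside it. Of the 5 protein-coding genes on each side, NFE2 and GPR84 were under 0.3 CPM in every group and LACRT and DCD had 0 counts. COPZ1, a coatomer subunit, was at 171, 171 and 158 CPM in parental cells, clone 37 and clone 15 and was not called (adjusted p by edgeR 0.760 and 0.157). ITGA5, an integrin subunit that ends 36.5 kb from GTSF1, was lower in clone 37 by 0.48 on the log2 scale (52.4 against 71.7 CPM, adjusted p = 9.37e-06) and was at 70.5 CPM in clone 15 (log2 fold change -0.05, adjusted p = 0.587). On the other side NCKAP1L, 24.1 kb away and known from blood cells, had 4, 4 and 9 counts in parental cells, 5, 5 and 6 in clone 37 and 76, 48 and 30 in clone 15 (0.449, 0.475 and 1.85 CPM). It reached the minimum of the filter in 1 parental library and in all of clone 15, so it passed only through clone 15 and its direction there is not read as a result. PDE1B and PPP1R1A, a phosphodiesterase and a phosphatase inhibitor, were higher in clone 15 by 0.62 (adjusted p = 0.00574) and 1.12 (adjusted p = 2.98e-05), and lower in clone 37 without a call (adjusted p = 0.211 and 0.296). ZNF385A was higher in clone 15 by 0.29 (adjusted p = 0.0281) and was not called in clone 37, and the clone 15 call was lost in 5 of 14 alternatives (adjusted p up to 0.112 by edgeR). The PDE1B call was lost after thinning (0.42, adjusted p = 0.0851 by edgeR). So no neighbour expressed above 1 CPM in parental cells was lost.

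**Figure D4:**
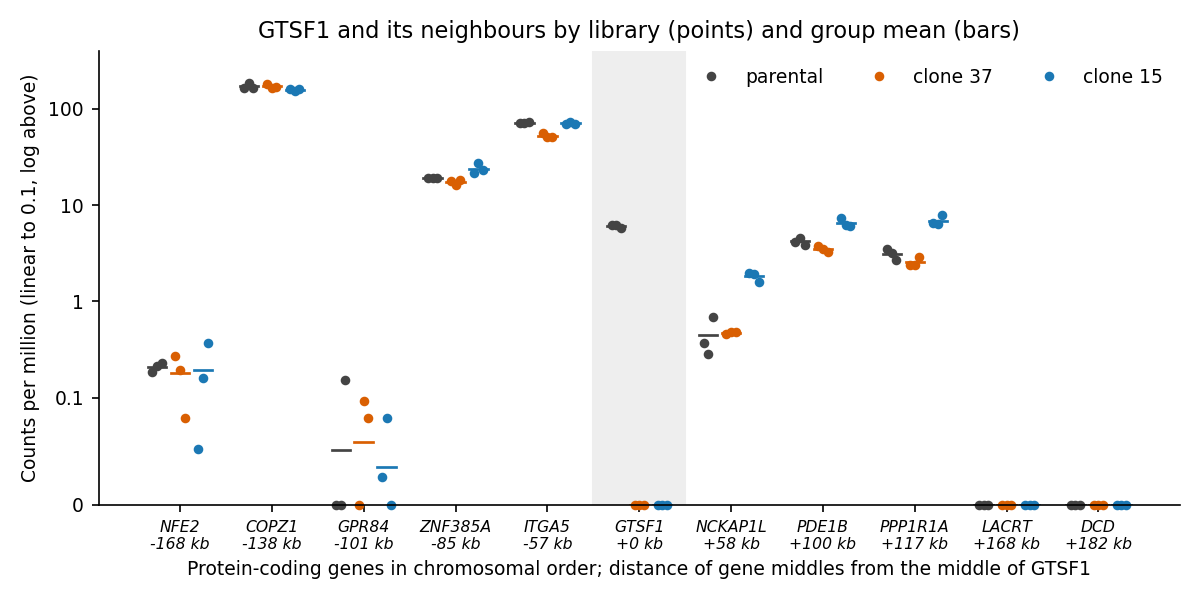
CPM of GTSF1 (shaded) and of the 5 protein-coding genes on each side in every library (points, with group means as bars), on an axis that is linear to 0.1 CPM and logarithmic above, with the distance in kb between gene middles under each name. GTSF1 alone drops from about 6 CPM to 0 in both clones, and PDE1B and PPP1R1A are higher in clone 15.

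In the 2 Mb on each side of GTSF1, 94 genes were tested in clone 37, and 26 were called higher and 17 lower (27.7% and 18.1%, against 26.7% and 27.3% of all genes), with a median log2 fold change of 0.05. In clone 15, 99 were tested, and 49 were called higher and 2 lower (49.5% and 2.02%, against 25.1% and 26.2% of all genes), with a median of 0.32, while the medians over all genes were 0.02 in both comparisons. Without parental replicate 2 the clone 37 counts were 27 and 22 of 96 (28.2% and 31.2% of all genes), the clone 15 counts were 52 and 6 of 106 (23.3% and 24.7% of all), and without clone 15 replicate 2 the latter were 48 and 1 of 101 (24.0% and 23.6% of all). Among genes at the minimum of the filter in every library of both groups they were 46 and 2 of 91 in clone 15, against 24.9% and 28.0% of all such genes. The lowest in this region were DGKA in clone 37 (-1.50) and CBX5 in clone 15 (-0.93).

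A wider list of 74 germline genes, of which 73 matched, gave the context of the same programs; it was drawn up with earlier results of these data known. Of the 73, 24 were at 1 CPM or more in every parental library, 26 in clone 37 and 24 in clone 15, and 20, 26 and 14 had no count in any library of the group. In clone 37, 27 passed the filter, with 12 called higher and 2 lower (26.7% and 27.3% of all genes tested) and a median log2 fold change of 0.24. In clone 15, 31 passed, with 8 called higher and 10 lower (25.1% and 26.2% of all) and a median of 0.07. Over all genes the medians were 0.02 and 0.02. Between the clones, 29 were tested, 12 higher and 3 lower in clone 37 (28.7% and 29.0% of all), at a median of 0.09 against -0.00. Without parental replicate 2 the counts were 12 higher and 3 lower of 29 in clone 37 (28.2% and 31.2% of all genes) and 6 and 10 of 37 in clone 15 (23.3% and 24.7%). Without clone 15 replicate 2 they were 7 and 9 of 30 in clone 15 (24.0% and 23.6%) and 13 and 4 of 30 between the clones (29.0% and 31.2%). A gene can pass the filter through 1 group alone, and its direction is then set by the filter. Of the 24 genes at its minimum in every library of both groups, clone 37 had 12 called higher and 2 lower, against 27.5% and 28.3% of all such genes. For clone 15 the same count was 6 higher and 8 lower of 24, against 24.9% and 28.0%.

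Of the piRNA genes, 6 passed in clone 37 with 3 called higher and 0 lower, where 26.7% and 27.3% of all genes were called so. In clone 15, 9 passed with 4 higher and 1 lower, against 25.1% and 26.2% of all genes, and of the 6 at the minimum in both groups 3 were higher and 1 lower (24.9% and 28.0% of all such genes). Without parental replicate 2, 3 of 7 were higher and 1 lower in clone 37 (28.2% and 31.2% of all), and 3 of 10 were higher and 1 lower in clone 15 (23.3% and 24.7%). TDRD7, a tudor-domain protein of germ granules, was at 21.0 CPM in parental cells and rose to 31.4 CPM in clone 37 (log2 fold change 0.55) and 30.4 CPM in clone 15 (0.50), both past the edgeR test. TDRKH, the mitochondrial partner of PIWI proteins, rose in clone 15 (0.38, from 23.5 to 31.4 CPM) and was at 20.9 CPM in clone 37 (-0.20, adjusted p = 0.0963 by edgeR). In clone 37 it was called lower without parental replicate 1 (adjusted p = 0.0370 by edgeR) or 2 (0.0244), and between the clones it was at -0.58 (adjusted p = 8.96e-07). PLD6, the mitochondrial nuclease Zucchini, rose in clone 37 (0.41, from 9.60 to 13.0 CPM) and was at 9.78 CPM in clone 15. That call was lost without clone 37 replicate 3 or parental replicate 1 (0.37 and 0.33, edgeR's adjusted p 0.0577 and 0.0546). SPOCD1, which links piRNAs to DNA methylation, fell in clone 15 by 1.12 on the log2 scale (2.40 to 1.11 CPM). TDRD12 was called higher in both clones (0.86 and 0.81), from 1.36 CPM to 2.55 and 2.43 CPM, but the calls were lost in 4 and 5 of 14 alternatives, each with the same direction (edgeR's or DESeq2's adjusted p up to 0.0645 and 0.0986). TDRD6 was at 2.09, 2.18 and 3.19 CPM and was called in neither clone (adjusted p by edgeR 0.918 and 0.0551). It was called higher in clone 15 in 3 of 14 alternatives, with all 9 libraries in one fit (adjusted p = 0.0441 by edgeR), without clone 15 replicate 2 (0.0352) and without parental replicate 1 (0.0375), and stood at -0.19 there with unstranded counts. PNLDC1, the piRNA trimmer, had 6, 3 and 6 counts in parental cells, 6, 11 and 10 in clone 37 and 28, 28 and 24 in clone 15. It passed the filter through clone 15 alone, so no direction is read from its call, which was lost in 4 of 12 alternatives (adjusted p up to 0.102 by edgeR or DESeq2).

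Of the meiotic genes, 17 passed the filter in each comparison with parental cells. Clone 37 had 8 called higher and 1 lower, where 26.7% and 27.3% of all genes were called so. Clone 15 had 2 called higher and 8 lower, against 25.1% and 26.2% of all genes. In the direct comparison of the clones, 16 were tested, and 9 were called higher and 1 lower in clone 37, against 28.7% and 29.0% of all genes. Among genes at the minimum in both groups the counts were 8 higher and 1 lower of 16 in clone 37 (27.5% and 28.3% of all such genes), 2 and 6 of 14 in clone 15 (24.9% and 28.0%), and 7 and 1 of 14 between the clones (30.4% and 29.0%). Without parental replicate 2 the counts over all that passed were 8 and 1 of 18 in clone 37 (28.2% and 31.2% of all genes) and 2 and 8 of 20 in clone 15 (23.3% and 24.7%). Without clone 15 replicate 2 they were 2 and 7 of 17 in clone 15 (24.0% and 23.6%) and 10 and 1 of 17 between the clones (29.0% and 31.2%). BRME1, which works with BRCA2 in meiotic recombination, was at 15.7, 11.7 and 15.8 CPM in parental libraries, 51.7, 59.2 and 50.7 CPM in clone 37 and 12.5, 15.6 and 14.8 CPM in clone 15. It stood above every other library only in clone 37, by 1.88 on the log2 scale, with an SE of 0.10 (edgeR's adjusted p = 1.25e-10). DMC1, the meiotic recombinase, was at 23.6, 8.92 and 16.6 CPM and fell in both clones, by 1.43 in clone 37 and 0.54 in clone 15 (adjusted p by edgeR 5.76e-09 and 0.000328). MEIOC, which keeps germ cells in meiosis, was at 16.2, 17.1 and 3.50 CPM, and fell by 2.26 in clone 15 (adjusted p = 1.53e-11 by edgeR). With unstranded counts the log2 fold change was -0.93, still past the test. SYCP2, the partner of SYCP3 in the lateral element, fell by 0.83 in clone 15 (19.0 to 10.8 CPM). STAG3, a meiotic cohesin subunit, had 17, 14 and 17 counts in parental cells, 11, 15 and 16 in clone 37 and 20, 16 and 6 in clone 15 (1.29, 1.25 and 0.499 CPM). It reached the minimum of the filter in 1 library of clone 15 and in all 3 of parental cells, so no direction is read from its clone 15 call, which was lost with unstranded counts and after thinning. TEX14, a protein of the bridges between germ cells, lies outside the rule for named genes and was picked after its values were seen, as 1 of the 2 called higher in clone 15. It was at 2.59, 2.09 and 1.68 CPM in parental libraries, 4.57, 3.00 and 4.70 CPM in clone 37 and 4.20, 4.95 and 4.40 CPM in clone 15. Every clone library was thus above every parental library, by 0.94 in clone 37 and 1.07 in clone 15 on the log2 scale (adjusted p by edgeR 0.00394 and 0.000323). PSMC3IP, a partner of DMC1, was called higher in both clones by 0.21 and 0.28, and YTHDC2, a partner of MEIOC, in clone 37 by 0.16, with the clone 37 calls lost in 11 and 10 of 14 alternatives (adjusted p up to 0.128 and 0.236 by edgeR or DESeq2). The clone 15 call of PSMC3IP was lost without parental replicate 1 and with unstranded counts (adjusted p up to 0.0689 by edgeR).

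Among the 14 meiotic genes at the minimum of the filter in every library, 3 were called in opposite directions. All were higher in clone 37 and lower in clone 15, as SYCE2 was. Of all 14514 genes at that minimum, 7.01% were called in opposite directions, in either order. The comparisons share the parental libraries. SMC1B, the meiotic cohesin subunit, was at 1.87 CPM in parental cells, 4.13 CPM in clone 37 (log2 fold change 1.11) and 0.794 CPM in clone 15. It reached that minimum in 2 of 3 libraries of clone 15, so no direction is read from its clone 15 call. With SMC1B the count was 4 of 17 tested, against 6.55% of 16360 genes. MND1, which aids strand invasion, was at 26.0, 36.6 and 18.7 CPM (0.46 and -0.51), TEX15, needed for meiotic recombination, at 79.2, 95.4 and 66.6 CPM (0.24 and -0.28), and MLH3, a mismatch repair protein, at 5.32, 10.1 and 3.54 CPM (0.89 and -0.62). MND1, TEX15 and MLH3 passed in both comparisons by edgeR, and the direct comparison of the clones passed as well. The clone 37 call of TEX15 was lost without clone 37 replicate 3 (0.19, adjusted p = 0.0813 by edgeR), and its clone 15 call without clone 15 replicate 2 (-0.15, adjusted p = 0.134) or parental replicate 2 (-0.24, adjusted p = 0.0782). The clone 15 call of MLH3 was lost without clone 15 replicate 2 (-0.50, adjusted p = 0.0708 by edgeR) or parental replicate 3 (-0.45, adjusted p = 0.122) and after thinning (-0.39, adjusted p = 0.155). With unstranded counts the clone 15 call of MLH3 (-0.46) was lost too, as was that of SMC1B. MSH5, a meiotic mismatch repair homologue, was at 24.1, 10.7 and 22.6 CPM in the parental libraries, with means of 30.9 CPM in clone 37 and 15.9 CPM in clone 15. It was called in neither clone (log2 fold change 0.68 and -0.28, adjusted p by edgeR 0.11 and 0.455), but without parental replicate 2, its lowest library, it was called in both, at 0.38 (adjusted p = 8.14e-05) and -0.57 (adjusted p = 0.00101). It was also called in clone 37 with no filter (adjusted p = 0.000433 by edgeR) and with unstranded counts (0.0247). Without that library MND1 was at 0.62 in clone 37 and -0.33 in clone 15, both still past the edgeR test.

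Of the other germ cell RNA regulators, 4 passed in clone 37 with 1 called higher and 1 lower (26.7% and 27.3% of all genes), and 5 passed in clone 15 with 2 higher and 1 lower (25.1% and 26.2%). The 2 higher became 1 of 7 without parental replicate 2 (23.3% of all genes) and 1 of 5 without clone 15 replicate 2 (24.0%). Among genes at the minimum in both groups it was 1 of 4 (24.9% of all such genes). NANOS1, a translational repressor, rose from 4.28 to 10.2 CPM in clone 37 (1.22, adjusted p = 8.60e-06 by edgeR) and was at 5.48 CPM in clone 15, called there only with unstranded counts (0.48, adjusted p = 0.0176). YBX2, a germ cell mRNA-binding protein, fell from 5.48 to 2.18 CPM in clone 37 and 2.99 CPM in clone 15. TAF7L, a testis transcription factor subunit, had 1, 2 and 4 counts in parental cells, 5, 4 and 6 in clone 37 and 36, 18 and 17 in clone 15. It passed the filter through clone 15 alone and its parental mean lies under the floor of 3 counts per library, so no fold is given and no direction is read from its call. DND1, an RNA-binding partner of NANOS proteins, was higher in clone 15 by 0.91 (0.948 to 1.78 CPM), a call lost in 5 of 13 alternatives (adjusted p up to 0.149 by edgeR or DESeq2).

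**Figure D5:**
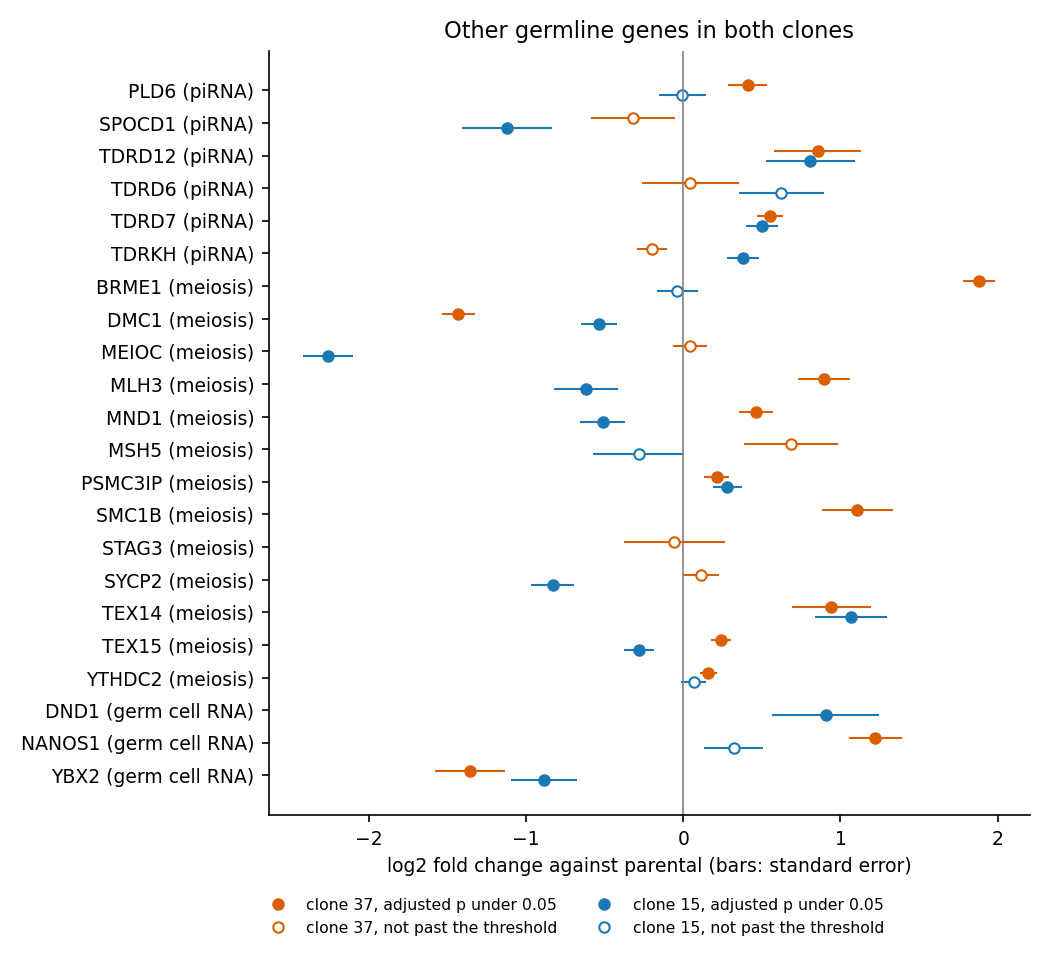
Log2 fold change against parental cells for the named genes of the wider germline list in clone 37 (orange) and clone 15 (blue), with standard errors as bars; filled points passed an adjusted p under 0.05 and open points did not, and a gene that passed the filter through 1 group has no point in that comparison. BRME1 stands farthest right in clone 37, at 1.88, and MEIOC farthest left in clone 15, where it fell by 2.26 (-0.93 with unstranded counts).

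Genes that act on DNA methylation or in the repression of germline promoters were also listed, as 28 genes of which 27 passed the filter. They include TET1, TET2 and TET3, which act against methylation, so the counts below mix both kinds. Clone 37 had 7 called higher and 10 lower, where the shares over all genes were 26.7% and 27.3%. Clone 15 had 12 called higher and 6 lower, where they were 25.1% and 26.2%. Without parental replicate 2 the counts were 9 and 12 in clone 37 (28.2% and 31.2% of all genes) and 12 and 6 in clone 15 (23.3% and 24.7%). DNMT3L had 0 counts in all 9 libraries. DNMT3A, a de novo DNA methyltransferase, was at 95.8 CPM in parental cells and fell to 48.3 CPM in clone 37 (log2 fold change -1.01, adjusted p = 2.94e-10 by edgeR) and 46.6 CPM in clone 15 (-1.07, adjusted p = 7.76e-11 by edgeR). DNMT3B, its relative, rose from 45.3 to 67.0 CPM in clone 37 and 74.3 CPM in clone 15. TET1, which oxidises methylcytosine, fell from 201 to 174 CPM and 147 CPM, and TET3 from 84.0 to 59.7 and 67.0 CPM. TET2, their relative, fell from 75.8 to 60.4 CPM in clone 37 and was at 74.4 CPM in clone 15 without a call. The maintenance methyltransferase DNMT1 was at 397, 440 and 413 CPM and was called in neither clone (adjusted p by edgeR 0.0841 and 0.810), except in clone 37 without parental replicate 2 (0.12, adjusted p = 0.0155). Its partner UHRF1 rose from 129 to 162 CPM in clone 37 (0.30) and 185 CPM in clone 15 (0.48). HELLS, a remodeller that aids DNA methylation, was at 350, 383 and 342 CPM and was called in neither. Both clones were compared with the same parental libraries, so the shared direction of DNMT3A, DNMT3B, TET1 and TET3 is not independent between them.

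Of the PRC1.6 genes, the DNA-binding subunits come first. E2F6 was at 26.5, 23.4 and 19.8 CPM in parental cells, clone 37 and clone 15, and fell in clone 15 (log2 fold change -0.46, adjusted p = 0.000705 by edgeR). It was not called in clone 37 (-0.20, adjusted p = 0.0742), but was in 3 of 14 alternatives, without parental replicate 2 (adjusted p = 0.0230 by edgeR), after thinning (0.0330) and with 1 CPM in 3 libraries (0.0483). TFDP1, a partner of E2F proteins, fell in clone 37 (-0.26) and was at -0.18 in clone 15 (adjusted p = 0.0634 by edgeR), where it was called lower in 4 of 14 alternatives (adjusted p from 0.0209 to 0.0498). MGA was higher in both clones, at 217, 273 and 259 CPM (0.30 and 0.23), with the clone 15 call lost in 7 of 14 alternatives (adjusted p up to 0.182 by edgeR or DESeq2). MAX, its partner, was at 55.4, 55.3 and 75.6 CPM and rose in clone 15 (0.41, adjusted p = 0.000246 by edgeR), and the direct comparison of the clones passed too (-0.45, adjusted p = 6.53e-07).

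The other subunits of the complex were all above 20 CPM in every group. PCGF6, which defines PRC1.6, was at 42.8, 59.3 and 41.6 CPM, with a log2 fold change of 0.44 in clone 37. L3MBTL2 was at 74.4 CPM in clone 37 and 95.7 CPM in clone 15, higher than parental cells in clone 15 (0.27, a call lost with unstranded counts, adjusted p = 0.0591 by edgeR) and not called in clone 37 (-0.09) except without parental replicate 2 (-0.15). RNF2, a ubiquitin ligase of PRC1, was at 71.4, 65.7 and 54.4 CPM and fell in clone 15 (-0.43, adjusted p = 0.000215 by edgeR). In clone 37 it was called lower only without parental replicate 3 (-0.23, adjusted p = 0.0228). RING1, its relative, was lower in clone 37 (-0.27) and higher in clone 15 (0.38). YAF2 was higher in both clones (0.42 and 0.37), as was WDR5 (0.31 and 0.34), and CBX3 was lower in both (-0.30 and -0.38). RYBP was at 67.3, 75.5 and 69.7 CPM and was called in neither clone, except in clone 37 without parental replicate 2 (0.23, adjusted p = 0.000499 by edgeR).

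Of the histone-modifying enzymes and their recruiters, EHMT1 and EHMT2, which methylate histone H3, were higher in clone 15 (0.40 and 0.30) and not called in clone 37. KDM5C, a histone demethylase, was higher in clone 15 (0.24), a call lost in 4 of 14 alternatives (adjusted p up to 0.144 by edgeR). In clone 37 the deacetylases HDAC1 (-0.15) and HDAC2 (0.17) and the methyltransferase SETDB1 (-0.15) were called, but those calls were lost in 8, 12 and 9 of 14 alternatives (adjusted p up to 0.176, 0.292 and 0.123 by edgeR or DESeq2), and in clone 15 none of the 3 was called (adjusted p by edgeR 0.855, 0.0756 and 0.244), save HDAC2 with all 9 libraries in one fit (-0.18, adjusted p = 0.0385). TRIM28, which recruits SETDB1 to chromatin, was lower in clone 37 and higher in clone 15, as RING1 was (-0.29 and 0.30), from 454 CPM to 377 and 572 CPM, with the clone 15 call lost without parental replicate 1 (0.23, adjusted p = 0.0856 by edgeR) and with unstranded counts (0.24, adjusted p = 0.0663).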

How the data were processed

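Each library has its own file of unnormalised counts per gene, deposited by the authors in the layout of STAR's gene counts. The submitters' processing notes name STAR 2.7.10a, FastQC 0.11.9 and hg38, without role or order; the annotation release is not given in the sources used here. Counts on the transcript strand (column 4) served for all main values. The 4 summary entries stayed out of library sizes. CPM are counts over a library's gene-count total. The filter was filterByExpr and the scaling TMM. The test was edgeR 4.0.16's quasi-likelihood F test (robust glmQLFit, glmQLFTest) in R 4.3.3, each pair on its 6 libraries, with Benjamini-Hochberg adjustment over all genes tested and a threshold of 0.05. The test was tested on simulated data. The standard error is the log2 fold change over the square root of F. Positions are from GENCODE 29 and promoters from RefSeq. Alternatives were the DESeq2 1.42.0 Wald test, other scaling and filters, unstranded counts, thinning, a replicate block, leaving out each replicate and, chosen after seeing the data, only genes that reached the filter's minimum (10 counts at the median library size) in every library of both groups. The members and gene lists were chosen with earlier results of these data known. Named genes were the 10 members, up to 3 called genes of largest change per list class and comparison, list genes with a mean of at least 5 CPM in a group, the 5 genes most like GTSF1 and the 5 coding genes on each side of it. Libraries held 10334090 to 38093340 gene counts.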

Additional observations from a re-analysis of the deposited data

Results flagged for a closer look

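SYCE2 was called in opposite directions in the clones against parental cells, and its log2 fold change between clone 37 and clone 15 was itself past the test at 1.34. The same held for SMC1B (2.36), MND1 (0.97), TEX15 (0.52) and MLH3 (1.52), as log2 fold changes of clone 37 over clone 15 in edgeR. RING1 (-0.65) and TRIM28 (-0.59) were called in opposite directions the other way round. SMC1B reached the minimum of the filter in 2 of 3 clone 15 libraries, so its direction there is not read, and its value was 1.43 with unstranded counts. Among genes at that minimum in every library these were 3 of 14 meiotic genes and 2 of 27 in the list of methylation and repression genes. Of all such genes 7.01% were called in opposite directions, and the comparisons share the parental libraries. Reads on the opposite strand of SYCE2, which the comparisons did not use, averaged 5.19 CPM in clone 37 and 4.20 CPM in clone 15, above every parental library (2.16 to 3.70 CPM).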

How the results depend on the processing

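The number of the 10 germline genes called was 2 in each comparison with parental cells (54.0% and 51.4% of all genes called) and 1 between the clones (57.7%). GTSF1, which was chosen for its loss, is 1 of the 2, so these counts turn on SYCE2 and nothing is read from GTSF1. With the DESeq2 Wald test the number was 1 in clone 37 and 1 in clone 15 (46.2% and 46.9% of all genes called), SYCE2 being lost in both. With unstranded counts it was 1 in clone 15, where SYCE2 reversed to 0.23 and STAG3 to 0.17 on the log2 scale, and 0 between the clones by edgeR (SYCE2 unadjusted p = 0.0380, 1 gene of 2 under 0.05; DESeq2 on own-strand counts called 1). Leaving out 1 library gave 1 in clone 15, whichever was left out. Without parental replicate 2, 23.3% of all genes were called higher and 24.7% lower there, and without clone 15 replicate 2, 24.0% and 23.6%. With only genes at the minimum of the filter in all libraries of both groups, an alternative chosen after seeing the data, it was 1 in clone 37 and 1 in clone 15, GTSF1 leaving by construction. The cause was not tested. Of 135 alternative counts 123 stayed within 1.5 times and 12 moved. Of 2409 alternative values of 173 results for named genes, called or not, 2194 kept direction and side of the threshold, 143 kept direction but lost the call, 28 gained one and 44 reversed. Of the 44, 2 are the called values of SYCE2 and STAG3 above, and 42 belong to genes called neither in the main test nor in that alternative. In clone 37, with unstranded counts, TDRD6 was at -0.55 and STAG3 at 0.29, and after thinning TDRD6 was at -0.012, STAG3 at 0.11 and MEIOC at -0.0023. In clone 15, with unstranded counts, TDRD6 was at -0.19, DNMT1 at -0.031, RYBP at -0.043 and HDAC1 at -0.040, and with 1 CPM in 3 libraries PLD6 was at 0.0039. Between the clones, with unstranded counts, WDR5 was at 0.0020 and SETDB1 at 0.018. Leaving out 1 library, the ranges in clone 37 were -0.23 to 0.25 for TDRD6, -0.023 to 0.18 for SYCP2, -0.22 to 0.083 for STAG3, -0.026 to 0.10 for MEIOC, -0.090 to 0.0057 for MAX, -0.052 to 0.0081 for KDM5C and -0.11 to 0.041 for COPZ1. In clone 15 they were -0.11 to 0.10 for PLD6, -0.16 to 0.072 for BRME1, -0.0023 to 0.073 for DNMT1, -0.13 to 0.019 for TET2, -0.060 to 0.13 for RYBP and -0.017 to 0.045 for HDAC1. Between the clones they were -0.027 to 0.075 for TDRD7, -0.089 to 0.16 for TDRD12, -0.25 to 0.059 for TEX14, -0.015 to 0.11 for MGA and -0.021 to 0.097 for YAF2. Over the alternatives, all genes called ranged from 7487 to 10027 in clone 37, 7997 to 9778 in clone 15 and 9069 to 11033 between the clones. Same-numbered libraries of 2 groups correlated at -0.20 to 0.03 and 1 of 9 libraries correlated best with its own number, so the numbers do not pair them. With the replicate block SYCE2 kept its call in all 3 comparisons (log2 fold changes 0.66, -0.67 and 1.34), and 8375, 8708 and 10490 genes were called in all. In 8 of the 10 genes the counts were too few for the filter, so differences among them were mostly not detectable at this depth.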

Other observations

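MOV10L1, a helicase that feeds transcripts to the piRNA pathway and was picked after its values were seen, had 3, 3 and 6 counts in parental libraries, 0 in all of clone 37 and 9, 5 and 6 in clone 15. It did not pass the filter in any of the 3 comparisons and was not in the main test. The fit with no filter included it, and its value there is not given.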
